A study of Mus musculus with 12 samples.

Results

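The Ikaros family comprises 5 zinc-finger transcription factors, encoded by Ikzf1 (Ikaros), Ikzf2 (Helios), Ikzf3 (Aiolos), Ikzf4 (Eos) and Ikzf5 (Pegasus). The members were taken by gene symbol, and all 5 were found among the 19938 genes with a row of their own on the arrays and among the 14953 bright enough to be tested. A gene with several rows is represented by the brightest of them on average. Gene expression had been measured on Affymetrix Mouse Gene ST arrays in 3 groups of mouse cells sorted from the thymus of C57/BL6 mice. There were 6 arrays of T cell lymphoma cells from TCF-1 KO mice of 12 to 40 weeks that had developed the disease, 3 arrays of TCF-1 KO DN3 thymocytes and 3 arrays of wild-type DN3 thymocytes, the DN3 donors being 8 to 12 weeks old. The lymphomas and the KO DN3 cells thus share the loss of TCF-1, and lymphoma-bearing mice were older than the DN3 donors or as old. Which knockout allele was used, and whether mice were pooled, is not given in the sources used here.

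Ikaros, Aiolos and Helios bind DNA through an N-terminal cluster of zinc fingers and pair with each other through a C-terminal pair of fingers. In lymphocytes they act largely through the chromatin-remodelling and deacetylating NuRD complex, and they restrain Notch target genes and set the threshold of antigen-receptor signalling in developing T cells. Loss of Ikaros function in mice leads to thymic lymphoma. Aiolos is best known from B cells and mature T cells, Helios and Eos from regulatory T cells, and Pegasus is the most divergent member. TCF-1 is a T-lineage factor of the TCF/LEF family, and DN3 thymocytes are the stage at which the T cell receptor beta gene is assembled.

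Start-site windows in the RefSeq table of build GRCm38.p6 were matched for 2 of the 5 members, Ikzf1 and Ikzf5, and each runs from 250 bases before to 50 after an annotated start. The Ikzf1 windows are shown because Ikzf1 differed between the TCF-1-deficient lymphomas and wild-type cells, with capitals for every CTTTG, the core of TCF/LEF sites, and every GGGAA, the core of Ikaros sites, on either strand (CAAAG and TTCCC on the other). The first lies at chr11:11685675-11685974 and the second at chr11:11689927-11690226, both on the plus strand.
Ikzf1, first start: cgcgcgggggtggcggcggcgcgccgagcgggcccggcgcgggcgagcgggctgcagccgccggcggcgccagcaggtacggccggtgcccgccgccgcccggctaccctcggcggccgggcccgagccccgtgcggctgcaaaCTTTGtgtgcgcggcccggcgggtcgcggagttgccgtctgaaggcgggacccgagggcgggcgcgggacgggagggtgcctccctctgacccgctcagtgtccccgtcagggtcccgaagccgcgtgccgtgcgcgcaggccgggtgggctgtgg
Ikzf1, second start: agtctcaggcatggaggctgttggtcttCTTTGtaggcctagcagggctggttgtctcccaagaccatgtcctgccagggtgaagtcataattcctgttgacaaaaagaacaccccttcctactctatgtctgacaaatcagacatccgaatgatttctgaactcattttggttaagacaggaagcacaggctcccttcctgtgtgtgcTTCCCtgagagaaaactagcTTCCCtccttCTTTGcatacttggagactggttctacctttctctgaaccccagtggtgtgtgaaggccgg
The first window is 81.3% G or C and holds 1 CTTTG and no GGGAA. The second is 49% G or C and holds 2 CTTTG and 2 matches to GGGAA, none of them overlapping. One of its CTTTG matches runs on as CTTTGTA, a longer TCF/LEF core in which CTTTG is followed by a pair of A or T bases. Of all 32851 windows of this length in the table, 53.9% hold a CTTTG, 16.9% the longer core and 62.7% a GGGAA. The Ikzf5 window holds 1 CTTTG and 1 GGGAA.

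Median log2 signals per array ran from 5.30 to 5.39. Signals of 34 unnamed rows divided the arrays into a smaller batch of 4, holding replicate 1 of both DN3 groups and lymphomas 1 and 2, and a larger batch of 8 (medians of 6.02 to 6.35 and 8.34 to 9.04). These batches are not named in the labels and each holds all 3 groups. They are inferred from the commonest split among unnamed rows, and the next commonest split was seen in 27 rows. Whether they are batches of array processing was not tested. Xist, which coats the inactive X, was dim, at 4.13 to 4.40, on KO DN3 replicate 3 and lymphomas 1, 2 and 6, and bright, at 10.10 to 10.58, on the other 8 arrays. The Y-linked genes Uty and Kdm5d were brighter on the arrays with dim Xist, at 5.98 to 7.12 and 6.09 to 7.43. On the others they stood at 4.03 to 4.31 and 4.38 to 4.77. No wild-type array has this pattern of male cells, so the sexes are unevenly spread over the groups. The part of sex in the differences below was not tested. The deleted gene was not analysed here, and its level is no check of the labels. The T cell genes Cd3e and Thy1 were bright on all arrays, at 10.28 to 10.73 and 10.63 to 11.19 in lymphomas, 9.65 to 10.15 and 10.87 to 11.30 in KO DN3 cells, and 9.89 to 10.26 and 10.76 to 11.16 in wild-type cells. The DN3 marker Il2ra stood at 9.89 to 10.62, 10.37 to 10.88 and 10.71 to 10.77 in the same order of groups, and Cd4 at 4.82 to 5.14, 5.09 to 5.14 and 4.80 to 5.26. Other DN3 markers, Rag1, Rag2, Dntt and Cd3g, were called lower in lymphomas than in wild-type cells, as given with their list below.

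Ikzf3, which encodes Aiolos, was the member with a large difference in every comparison, higher in KO DN3 cells than in wild-type cells and higher again in the lymphomas. Its log2 signal was 9.11 at the lowest, 9.36 at the median and 9.47 at the highest in the 6 lymphomas, against 7.59, 8.18 and 7.99 in KO DN3 cells and 5.97, 6.36 and 5.75 in wild-type DN3 cells. The 3 groups did not overlap: the dimmest KO DN3 array lay 1.23 above the brightest wild-type array, and the dimmest lymphoma 0.94 above the brightest KO DN3 array. Means were 9.34 ± 0.14 (SD, n = 6) in lymphomas, 7.92 ± 0.30 (SD, n = 3) in KO DN3 cells and 6.03 ± 0.31 (SD, n = 3) in wild-type cells. In KO against wild-type DN3 cells Ikzf3 rose by 1.89 (SE 0.18, limma adjusted p = 0.000646), or 3.71-fold (95% interval 2.80 to 4.92), the 8th largest rise of all genes tested. In lymphomas against wild-type DN3 cells it rose by 3.31 (SE 0.13, limma adjusted p = 4.75e-08), or 9.92-fold (8.16 to 12.0), the 5th largest rise. The step in lymphomas against KO DN3 cells, tested directly, was 1.42 (SE 0.13, limma adjusted p = 7.6e-05), or 2.67-fold (2.19 to 3.25). The wild-type and KO arrays are each used in 2 of these comparisons, so the 3 differences are not independent. In a sorted population a higher share of expressing cells and more RNA per cell cannot be told apart. Split by array batch, smaller first, Ikzf3 differed by 1.62 and 2.03 between KO and wild-type DN3 cells, by 3.32 and 3.30 between lymphomas and wild-type cells, and by 1.70 and 1.27 between lymphomas and KO DN3 cells. KO DN3 replicate 3, the array with low Xist in that group, lay between the other KO arrays. Ikzf3 stayed called in each of the 16 or 20 alternative fits of each comparison that gave a test, with adjusted p up to 0.00788, 0.00616 and 0.0338.

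**Figure D1:**
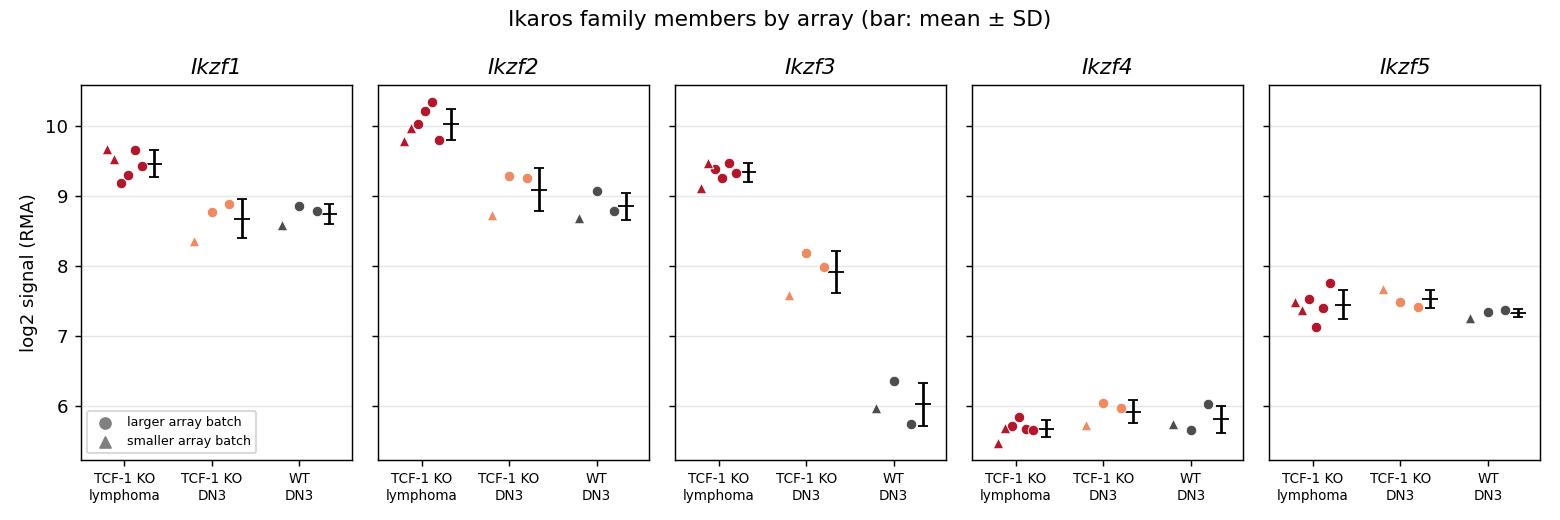
Log2 signal of the 5 Ikaros family genes on each array, with lymphomas, KO DN3 cells and wild-type DN3 cells from left to right in each panel (points, triangles for the smaller array batch, bars for mean ± SD). Levels of different genes are not comparable, since each row has its own probes. For Ikzf3 the groups lie at means of 9.34, 7.92 and 6.03 without overlap, while for Ikzf4 and Ikzf5 the lymphomas overlap the DN3 arrays.

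Ikzf1, the gene of Ikaros itself, did not pass in KO DN3 cells and was higher in the lymphomas. Its log2 signal was 9.19 at the lowest, 9.48 at the median and 9.67 at the highest in lymphomas, against 8.36, 8.77 and 8.89 in KO DN3 cells and 8.58, 8.86 and 8.78 in wild-type cells. Every lymphoma lay above every DN3 array, by 0.29 or more over KO and 0.32 or more over wild-type arrays, whereas the DN3 groups overlapped. Ikzf1 rose by 0.72 in lymphomas against wild-type DN3 cells (SE 0.12, limma adjusted p = 0.00288), or 1.65-fold (95% interval 1.37 to 1.97), and by 0.79 against KO DN3 cells (SE 0.14, limma adjusted p = 0.00673), or 1.72-fold (1.39 to 2.13). Between KO and wild-type DN3 cells the difference was -0.07 with a 95% interval of -0.40 to 0.27 (limma adjusted p = 0.851), and it was 0.091 without KO DN3 replicate 1, the dimmest array for this gene. The rise in lymphomas was 1.02 in the smaller and 0.57 in the larger batch against wild-type cells, and 1.24 and 0.56 against KO DN3 cells. It was not called in the larger batch alone (adjusted p = 0.0569 and 0.0763). The smaller batch holds 1 array of each DN3 group, so its differences are read as sizes alone. Both lymphomas in it had dim Xist and both DN3 arrays bright Xist, so sex and group cannot be told apart there. With the batch as a term the rise of Ikzf1 was called in both comparisons (adjusted p = 0.00281 and 0.00544).

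Ikzf2, which encodes Helios, was also higher in the lymphomas and did not pass in KO DN3 cells. Its log2 signal was 9.79 at the lowest, 9.99 at the median and 10.34 at the highest in lymphomas, against 8.73, 9.28 and 9.26 in KO DN3 cells and 8.69, 9.07 and 8.79 in wild-type cells. The lymphomas lay 0.51 or more above the KO arrays and 0.72 or more above the wild-type arrays, and the DN3 groups overlapped. Ikzf2 rose by 1.17 in lymphomas against wild-type cells (SE 0.14, limma adjusted p = 0.000201), or 2.26-fold (95% interval 1.84 to 2.77), and by 0.93 against KO DN3 cells (SE 0.15, limma adjusted p = 0.00423), or 1.91-fold (1.51 to 2.41). In KO against wild-type DN3 cells the difference was 0.24 with a 95% interval of -0.13 to 0.61 (limma adjusted p = 0.501), which leaves room for a rise of up to 1.53-fold. The rise in lymphomas was 1.20 and 1.16 within the smaller and the larger batch against wild-type cells, and 1.15 and 0.82 against KO DN3 cells, and it stayed called in all 20 alternatives that gave a test in both comparisons.

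Ikzf4, which encodes Eos, a partner of Foxp3 in regulatory T cells, was called in none of the comparisons. Its log2 signal was 5.48 at the lowest, 5.68 at the median and 5.85 at the highest in lymphomas, against 5.74, 6.05 and 5.98 in KO DN3 cells and 5.75, 5.66 and 6.03 in wild-type cells, and all 3 groups overlapped. These values lie near the median of the arrays, and the deposited table has no detection calls. The largest difference was -0.24 in lymphomas against KO DN3 cells (95% interval -0.47 to -0.02, limma adjusted p = 0.173). Against wild-type DN3 cells the lymphomas differed by -0.13 (-0.36 to 0.09, adjusted p = 0.669) and the KO DN3 cells by 0.11 (-0.19 to 0.41, adjusted p = 0.727).

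Ikzf5, which encodes Pegasus, has 2 rows under its symbol. The brighter one, which stands for the gene here, lies among row numbers whose genes are on chromosome 3 (19 of the nearest 20 with a gene), although Ikzf5 is on chromosome 7, where 19 of the 20 genes around the dimmer row lie. It is therefore uncertain that the brighter row measures Ikzf5. Its log2 signal was 7.13 at the lowest, 7.44 at the median and 7.76 at the highest in lymphomas, against 7.67, 7.49 and 7.42 in KO DN3 cells and 7.26, 7.35 and 7.37 in wild-type cells. The KO arrays lay just above the wild-type arrays, by 0.06, and the lymphomas overlapped both. Differences were 0.20 in KO against wild-type DN3 cells (95% interval -0.06 to 0.46, limma adjusted p = 0.416), 0.12 in lymphomas against wild-type cells (-0.14 to 0.38, adjusted p = 0.778) and -0.08 in lymphomas against KO DN3 cells (-0.35 to 0.20, adjusted p = 0.731). On the dimmer row the signal was 4.67 to 5.81 in lymphomas, 5.30 to 5.60 in KO DN3 cells and 5.23 to 5.53 in wild-type cells, and the same differences were 0.12, 0.04 and -0.08 (adjusted p = 0.678, 0.973 and 0.828, a check chosen after seeing the data). Neither row was called in any comparison.

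Over the family, 1 of the 5 members was called in KO against wild-type DN3 cells, where 1.99% of the genes tested were, 0.568% higher and 1.42% lower, and 2 had arrays that did not overlap (Ikzf3 and Ikzf5), where 22% of genes did. For Ikzf5 this holds, by 0.06, on the brighter row of uncertain identity, and on the dimmer row the groups overlapped. The share of genes called was 9.23% with the replicate number as a block, under which Ikzf3 was again the 1 member called. In lymphomas against wild-type cells, 3 of 5 were called, all higher, where 5.82% of genes were called, 2.96% higher and 2.86% lower. The same 3 had arrays apart, where 10.3% of genes did. In lymphomas against KO DN3 cells, Ikzf1, Ikzf2 and Ikzf3 were again the 3 members called, all higher, beside 6.62% of genes called, 4.5% higher and 2.12% lower, and they had arrays apart, where 13.6% of genes did. No member was called lower in any of these comparisons. The median difference over all genes tested was 0.03, -0.01 and -0.03 in the 3 comparisons in this order.

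**Figure D2:**
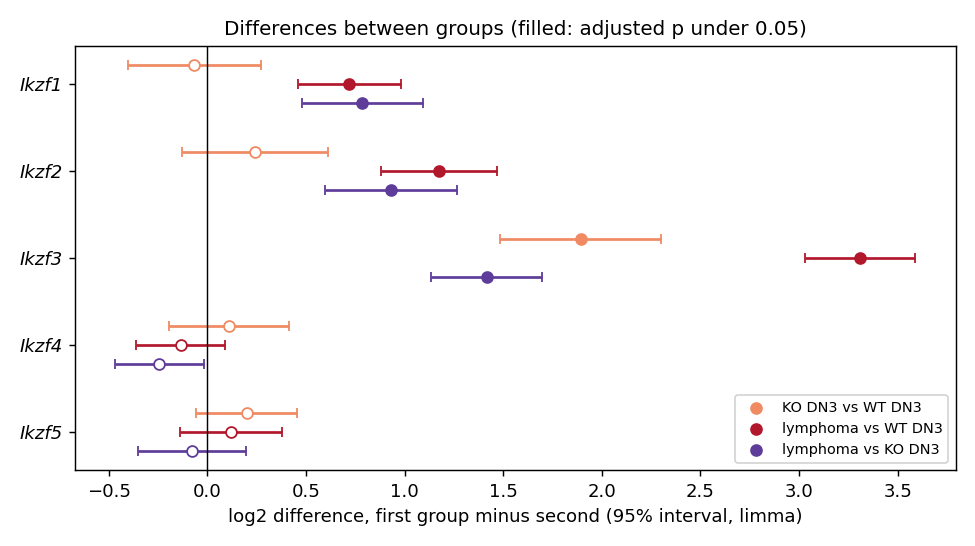
Log2 differences of the 5 genes in the 3 comparisons, each the first group minus the second (points, filled where the limma adjusted p was under 0.05, bars for 95% intervals). Ikzf3 is the member with filled points in all 3 comparisons, at 1.89, 3.31 and 1.42, and Ikzf1 and Ikzf2 have filled points in those of lymphomas alone.

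The SD over the 6 lymphomas was 0.14 for Ikzf3, 0.19 for Ikzf1, 0.22 for Ikzf2, 0.12 for Ikzf4 and 0.21 for Ikzf5. Lymphoma 1 had the highest Ikzf1 and the lowest Ikzf2, Ikzf3 and Ikzf4, while lymphoma 5 had the highest Ikzf2 and Ikzf3. For none of the 5 genes did a lymphoma stand apart by Dixon's test, in which the largest gap at an end was 0.489 of the range (lymphoma 1 for Ikzf4), under the critical value for 6 samples.

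The genes beside the members on the chromosomes were read for comparison, as the nearest 2 measured genes on each side in the RefSeq order. Of these 20 genes 15 were tested, 0, 1 and 2 of them called in KO against wild-type DN3 cells, lymphomas against wild-type cells and lymphomas against KO DN3 cells. Of all genes tested 1.99%, 5.82% and 6.62% were called there, so these counts do not set the neighbours apart. Beside Ikzf3, Mien1, Grb7 and Ormdl3 differed by -0.04, 0.10 and 0.43 in KO against wild-type DN3 cells and by -0.13, 0.31 and 0.27 in lymphomas against wild-type cells, with none called. Beside Ikzf1, Spata48 differed by 0.37 in KO against wild-type DN3 cells and by 0.56 in lymphomas against wild-type cells, and Fignl1 by -0.077 and 0.20, with neither called. Ddc, the decarboxylase gene next to it, differed by -0.43 (limma adjusted p = 0.0214), which was not called without wild-type replicate 1 or 3 (adjusted p = 0.0671 and 0.132). Against KO DN3 cells Ddc fell by 0.55 (adjusted p = 0.00613). Neither call of Ddc was made in a batch alone (adjusted p of 0.0680 to 0.204). Near Ikzf5, Hmx3 differed by -0.43 in lymphomas against KO DN3 cells (adjusted p = 0.0285), a call lost without any 1 of lymphomas 3, 5 and 6 and KO DN3 replicates 1 and 3 (adjusted p = 0.0527, 0.057, 0.0541, 0.116 and 0.135).

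Among all genes tested, the profile closest to that of Ikzf3 over the 12 arrays was that of Gimap4, a GTPase of lymphocytes, followed by Afdn, Ptpn14, Agfg1 and Atp8a2. The measure was the root mean square difference of log2 signals after subtracting each gene's wild-type mean, and it was 0.37, 0.40, 0.47, 0.59 and 0.66 for these genes. Gimap4 stood at 8.12 to 8.90 in lymphomas, 6.47 to 6.88 in KO DN3 cells and 4.73 to 5.37 in wild-type cells, and like Ikzf3 it separated all 3 groups. Afdn, which encodes a protein of cell junctions, did so too, at 9.04 to 9.35 in lymphomas, 7.34 to 8.55 in KO DN3 cells and 6.02 to 6.31 in wild-type cells, and was 1.18 higher in lymphomas than in KO DN3 cells. Ptpn14, Agfg1 and Atp8a2 differed by 2.29, 2.06 and 2.50 in KO against wild-type DN3 cells, with smaller steps than Ikzf3 in lymphomas against KO DN3 cells, of 0.54, 0.46 and 0.51. For Ikzf1 the closest were Fut10, Dnajb4, Cept1, Pxylp1 and Ssh2, at 0.17 to 0.20, and for Ikzf2 they were Hectd2, P2rx7, Tulp4, Coro2a and Tspan32, at 0.17 to 0.21. P2rx7 is a receptor for extracellular ATP. Ikzf1 and Ikzf2 differed from each other by 0.41 on this measure and from Ikzf3 by 2.09 and 1.73. These genes were selected for likeness on the same arrays, so their levels are a description.

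**Figure D3:**
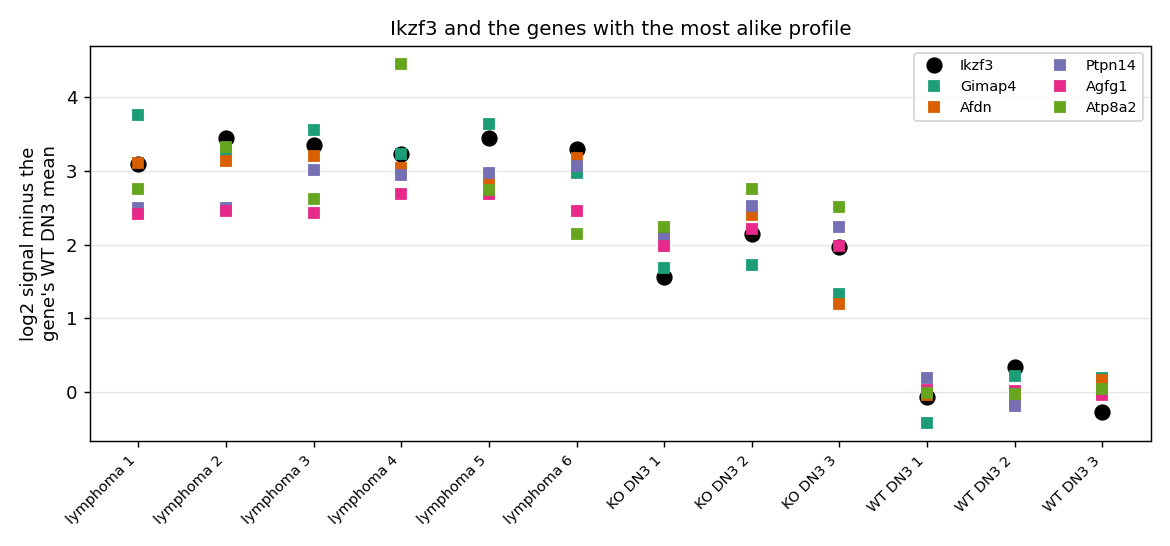
Log2 signal minus the gene's mean over wild-type DN3 arrays, for Ikzf3 (black circles) and the 5 genes with the closest profile (squares), on lymphomas, KO DN3 and wild-type DN3 arrays from left to right. Over KO DN3 cells the lymphomas gain 1.42 for Ikzf3, 1.82 for Gimap4 and 1.18 for Afdn, and 0.54 and 0.46 for Ptpn14 and Agfg1.

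Of the partners through which Ikaros proteins act, the 14 NuRD genes held 0 limma calls in KO against wild-type DN3 cells (3 at an unadjusted p under 0.05), with a median difference of -0.15 against 0.03 over all genes. Of all genes tested 1.99% were called there. In lymphomas against wild-type cells 2 of 14 fell and none rose, beside 5.82% of all genes called, with a median of -0.08 against -0.01. Chd3, the Mi-2 alpha remodelling ATPase, was at 5.51 to 6.11 in lymphomas, 6.59, 7.32 and 6.77 in KO DN3 cells and 7.54, 7.63 and 7.43 in wild-type cells. The groups did not overlap. Chd3 fell by 1.77 in lymphomas against wild-type cells (SE 0.13, limma adjusted p = 5.29e-06) and by 1.13 against KO DN3 cells (SE 0.17, adjusted p = 0.00218), and both calls held in all 20 alternatives. In KO against wild-type DN3 cells its difference was -0.64 (adjusted p = 0.102). With same-numbered KO and wild-type arrays as pairs, 2 of the 14 NuRD genes were called lower and none higher, Chd3 (adjusted p = 0.00899) and Mta3 (-0.44, adjusted p = 0.0228), beside 9.23% of all genes. Its relative Chd4, Mi-2 beta, the ATPase with which Ikaros copurifies from T cells, stood at 9.63 ± 0.21 in lymphomas, 9.38 ± 0.21 in KO DN3 cells and 9.58 ± 0.08 in wild-type cells (SD, n = 6, 3 and 3), and was not called. Mta3 fell by 0.84 in lymphomas against wild-type cells (adjusted p = 0.000269), or by 0.43 with its 2 rows averaged. Against KO DN3 cells 3 of the 14 NuRD genes were lower and none higher, beside 6.62% of all genes called, with a median of 0.05 against -0.03. Besides Chd3 these were Mbd2 (-0.54, adjusted p = 0.0112, and 0.0567 without KO DN3 replicate 1, 0.0784 and 0.104 in the larger and the smaller batch alone) and Mta3 (-0.40, adjusted p = 0.0458, and -0.23 with adjusted p = 0.146 with its rows averaged). That call of Mta3 was lost when any 1 lymphoma or KO DN3 replicate 1 or 2 was left out (adjusted p of 0.0527 to 0.158).

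Of 8 measured genes for other partners, Smarca4 was the 1 gene called in each comparison. For this list and the modifiers below, the background is 1.99%, 5.82% and 6.62% of all genes called. These are the shares in KO against wild-type DN3 cells, lymphomas against wild-type cells and lymphomas against KO DN3 cells. Smarca4 encodes BRG1, the ATPase of the SWI/SNF remodeller, with which Ikaros also associates. It stood at 8.09 to 8.39 in lymphomas, against 8.70, 8.66 and 8.72 in KO DN3 cells and 9.41, 9.47 and 9.34 in wild-type cells, and the 3 groups did not overlap. It fell by 0.72 in KO against wild-type DN3 cells (SE 0.11, limma adjusted p = 0.0085), by 1.20 in lymphomas against wild-type cells (SE 0.09, adjusted p = 5.41e-06) and by 0.49 in lymphomas against KO DN3 cells (SE 0.09, adjusted p = 0.00829). The first of these calls was lost without wild-type replicate 2 (-0.69, adjusted p = 0.0705). The call against KO DN3 cells was lost with the replicate block and in the larger and the smaller batch alone (adjusted p = 0.0590, 0.0858 and 0.102), while that of lymphomas against wild-type cells held in all 20 alternatives. The corepressor genes Ctbp1, Ctbp2, Sin3a and Sin3b and the Polycomb genes Ezh2, Eed and Suz12 were not called, and the medians of the list were -0.11, -0.15 and 0.01. Among 10 measured genes for modifiers of Ikaros proteins (the cereblon ligase through which thalidomide analogues degrade human IKZF1 and IKZF3, casein kinase 2 and protein phosphatase 1), 0, 1 and 2 were called in the 3 comparisons, all higher, with medians of -0.09, 0.01 and 0.14, and in the first 0 had an unadjusted limma p under 0.05. Crbn, the gene of cereblon, stood at 7.88 to 8.19 in lymphomas, 7.49, 7.72 and 7.32 in KO DN3 cells and 7.82, 7.80 and 7.74 in wild-type cells. It rose by 0.53 in lymphomas against KO DN3 cells (limma adjusted p = 0.0115, and 0.0685 without KO DN3 replicate 3, 0.106 and 0.0877 in the larger and the smaller batch alone), and it was not called against wild-type cells (0.25, adjusted p = 0.119). Ppp1cc, a phosphatase subunit gene, was 0.33 higher than in wild-type cells (adjusted p = 0.0394), and 13 of 20 alternatives ended that call, among them those without any 1 of the 6 lymphomas or 3 wild-type arrays (adjusted p of 0.0503 to 0.209). Against KO DN3 cells it was 0.42 higher (adjusted p = 0.035), a call lost without KO DN3 replicate 3 or without any 1 of lymphomas 1, 2, 3, 5 and 6 (adjusted p of 0.0539 to 0.157). That call was also lost with repeated quantile normalisation, with the replicate block and in the larger batch alone (adjusted p = 0.0518, 0.0649 and 0.111), and in the smaller batch alone.

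Of 22 measured genes reported as targets of Ikaros proteins in lymphocytes, 21 were tested. In KO against wild-type DN3 cells 3 rose, 4 fell and 14 were not called, with a median of -0.21 against 0.03 over all genes. With the arrays paired by number, 4 rose and 6 fell, the added ones being Nrarp (0.42), Hes1 (-0.60) and Rag2 (-0.50, adjusted p = 0.0277, 0.00909 and 0.0139). That fit called 9.23% of all genes tested, against 1.99% without pairing. The coreceptor genes Cd8b1 and Cd8a rose by 1.40 and 1.21 (limma adjusted p = 0.000455 and 0.00111). Cd8a was not called in 1 fit to all arrays (adjusted p = 0.129). Cd8b1 stood at 6.77 to 8.14 in lymphomas, against 7.41, 7.34 and 7.40 in KO DN3 cells and 6.20, 5.80 and 5.95 in wild-type cells, so that for Cd8b1 both TCF-1-deficient groups lay above wild type. Cd8a in lymphomas, at 5.82 to 7.70, overlapped wild-type cells, at 5.67 to 6.03, and was not called (0.85, limma adjusted p = 0.292). In KO against wild-type DN3 cells Il7r, the interleukin 7 receptor gene, differed by -1.01 (adjusted p = 0.0149). It was not called without wild-type replicate 2 or 3 (adjusted p = 0.0935 and 0.0627) or in 1 fit to all arrays (adjusted p = 0.311). Dntt, the gene of terminal transferase and an early known Ikaros target, fell by 0.69 (adjusted p = 0.0176). That call was lost without KO DN3 replicate 3 or wild-type replicate 2 or 3 (adjusted p = 0.0848, 0.119 and 0.0683).

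In lymphomas against wild-type cells 2 of the 21 targets rose, 8 fell and 11 were not called, with a median of -0.17 against -0.01. Dtx1, a Notch target gene, stood at 7.41 to 7.80 in lymphomas, up to 7.53 in KO DN3 cells and 6.66, 6.60 and 6.68 in wild-type cells, and rose by 0.92 (SE 0.09, limma adjusted p = 7.69e-05). The cyclin gene Ccnd2 stood at 6.74 to 7.78 in lymphomas, 8.41, 8.36 and 7.93 in KO DN3 cells and 8.98, 8.90 and 8.98 in wild-type cells, and fell by 1.72 (SE 0.18, adjusted p = 0.000123). The kinase gene Cdk6 fell by 0.85 and Dntt by 0.94 (adjusted p = 0.000729 and 0.00214). Each of these 4 calls was lost in the smaller batch alone and in no other alternative. Of the Notch genes in the list, Hes1 differed by 0.12 and Notch1 by -0.35 in lymphomas against wild-type cells, and neither was called. In lymphomas against KO DN3 cells 5 targets fell, none rose and 16 were not called, with a median of -0.20 against -0.03. They included Ccnd2 (-0.99, adjusted p = 0.0126, and 0.0669 without KO DN3 replicate 1). The recombinase gene Rag1 (-1.62, adjusted p = 0.023) and the survival gene Bcl2 (-0.92, adjusted p = 0.0239) fell too, and both calls were lost when any 1 KO DN3 array was left out (adjusted p of 0.0544 to 0.0891). Of the targets tested 33.3%, 47.6% and 23.8% were called in KO against wild-type DN3 cells, lymphomas against wild-type cells and lymphomas against KO DN3 cells, beside 1.99%, 5.82% and 6.62% of all genes tested. The list was drawn up with earlier results of these arrays known, so those shares are a description.

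**Figure D4:**
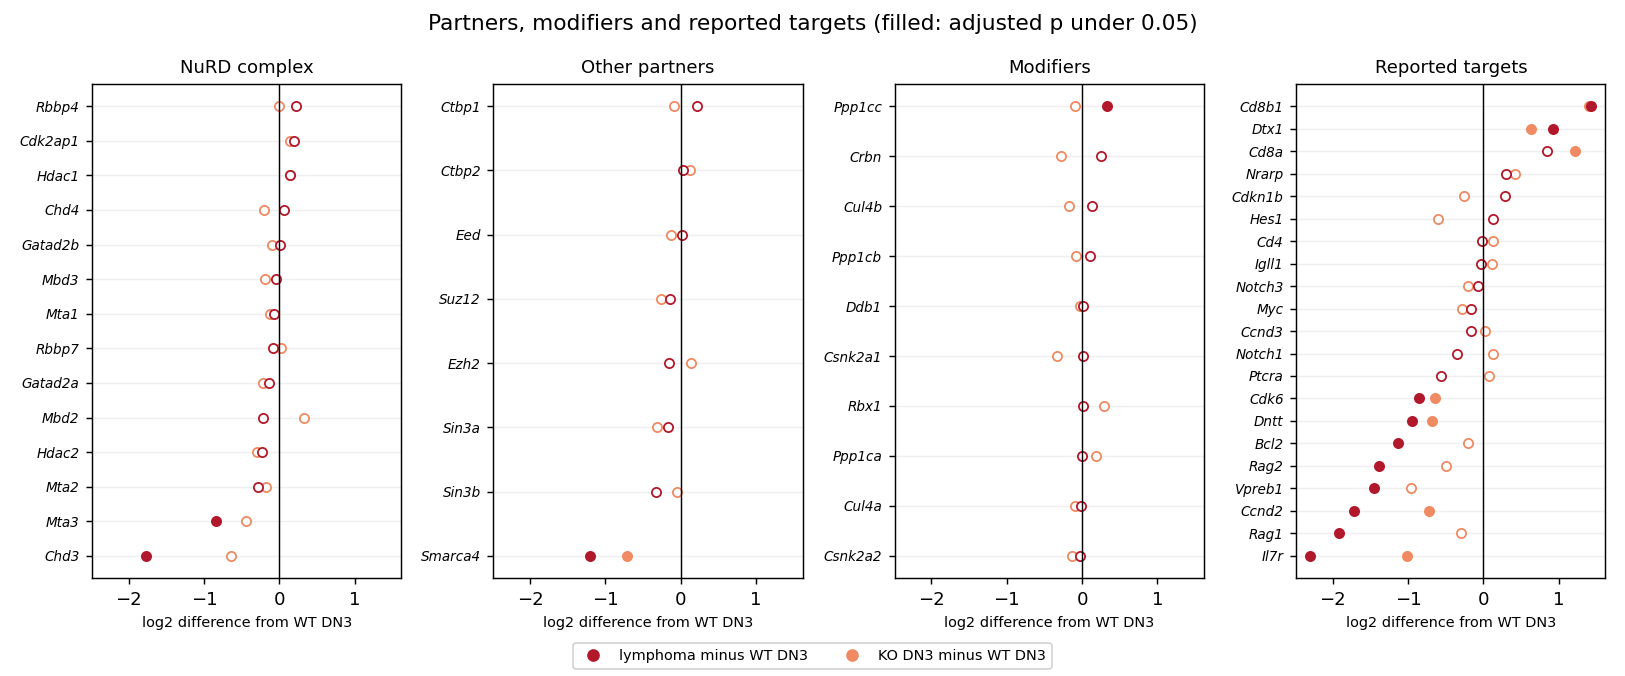
Log2 differences from wild-type DN3 cells for the genes of the NuRD complex, other partners, modifiers and reported targets, in lymphomas (dark red) and KO DN3 cells (orange), filled where the limma adjusted p was under 0.05. Chd3 (-1.77), Mta3 (-0.84) and Smarca4 (-1.20) are the partner genes filled for lymphomas, and Smarca4 (-0.72) the 1 filled for KO DN3 cells.

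Markers of cells in which Aiolos, Helios or Eos are known to be abundant were read beside these results. The same shares of all genes, 1.99%, 5.82% and 6.62%, are the background of each count without pairing. Of 11 measured B cell markers 6 were tested, and in limma 0, 0 and 0 of them were higher and 0, 1 and 1 lower in KO against wild-type DN3 cells, lymphomas against wild-type cells and lymphomas against KO DN3 cells (1 at an unadjusted p under 0.05 in the first). The mean log2 signal of the 11 was 4.71 to 4.84 in lymphomas, 4.93 to 5.05 in KO DN3 cells and 4.81 to 4.90 in wild-type cells. Their defining members Cd79a and Ms4a1 stood at 3.67 to 4.32 and 3.73 to 4.14 in lymphomas, 3.76 to 4.64 and 3.77 to 4.02 in KO DN3 cells, and 3.86 to 4.29 and 3.77 to 3.90 in wild-type cells, under the filter of 4.78 on the mean. Others of the list lay above it. Pax5 stood at 5.24 to 5.60 in lymphomas, 5.53 to 5.81 in KO DN3 cells and 5.49 to 5.62 in wild-type cells. Cd79b stood at 4.98 to 5.51 in lymphomas, 5.88 to 6.14 in KO DN3 cells and 6.05 to 6.22 in wild-type cells, and was the 1 marker that fell in lymphomas (-0.95 against wild-type and -0.82 against KO DN3 cells, limma adjusted p = 0.000216 and 0.00186, the first 0.0640 in the smaller batch alone). Of 10 regulatory T cell markers 4 were higher in KO against wild-type DN3 cells, none lower, with a median of 0.48 and list means of 6.32 to 6.48 in KO and 5.91 to 5.96 in wild-type cells. The integrin gene Itgae had the lowest p, with a rise of 1.19 (limma adjusted p = 0.00579, and 0.0945 in 1 fit to all arrays). The other 3, Nrp1 (0.90), Il10 (0.75) and Gpr83 (0.60), each lost the call without any 1 wild-type array (adjusted p of 0.0512 to 0.167). Foxp3 itself stood at 5.38 to 5.64 in lymphomas, 5.59 to 5.90 in KO DN3 cells and 5.30 to 5.65 in wild-type cells and was not called. In lymphomas, whose list means were 5.91 to 6.29, 1 of these markers rose and 1 fell against wild-type cells, and 0 rose and 1 fell against KO DN3 cells. The 1 that fell in both was Ctla4, an inhibitory receptor gene, with differences of -1.78 and -2.65 (adjusted p = 0.000145 and 2.63e-05).

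Of 9 tested genes induced by T cell receptor signalling, 1, 2 and 1 were higher in the 3 comparisons and none lower, with medians of 0.13, 0.35 and 0.23. Cd5, a surface gene whose level follows receptor signalling, rose by 0.63 in KO against wild-type DN3 cells (limma adjusted p = 0.038), a call lost without any 1 wild-type array or KO DN3 replicate 1 or 3 (adjusted p of 0.0722 to 0.170). In lymphomas against wild-type cells Cd5 rose by 0.98 (adjusted p = 7.45e-05, and 0.0715 in the smaller batch alone). The immediate-early gene Egr1 rose by 0.92 in lymphomas against wild-type cells and by 0.79 against KO DN3 cells (limma adjusted p = 0.000802 and 0.0046, and 0.130 and 0.0970 in the smaller batch alone). Of 10 tested gamma-delta T cell markers 1, 3 and 2 were higher, none lower and 9, 7 and 8 not called, with list means of 6.21 to 6.97 in lymphomas, 6.07 to 6.13 in KO DN3 cells and 5.79 to 5.88 in wild-type cells. Etv5 rose by 2.51 in lymphomas against wild-type cells, or by 2.17 with its 2 rows averaged. That call was lost in the larger batch alone (limma adjusted p = 0.0792). Sox13 differed by -0.00082 in KO against wild-type DN3 cells and was not called. Icos, a costimulator gene, rose by 1.63 in lymphomas against wild-type cells (adjusted p = 0.000814). Of 12 measured NK markers 6 were tested, with 0, 3 and 2 of them higher and 0, 1 and 1 lower. Means of the 12 were 5.09 to 5.34, 5.08 to 5.35 and 4.85 to 5.01 in lymphomas, KO DN3 and wild-type cells. In lymphomas against wild-type cells Id2, Nfil3 and Il2rb were the higher ones and Nkg7 the lower one. The NK receptor gene Ncr1 lay under the filter, at 3.99 to 4.23, 4.32 to 4.34 and 3.88 to 4.24 in the same order of groups. No myeloid or dendritic marker of 8 tested was called by limma (1, 0 and 2 at an unadjusted p under 0.05), and their list means were 5.40 to 5.59, 5.50 to 5.55 and 5.40 to 5.46. Of 8 thymic stroma markers 0, 0 and 1 were higher and 0, 1 and 2 lower, with list means of 5.50 to 5.69, 5.71 to 5.91 and 5.71 to 5.78. Of 11 DN3 markers 0, 0 and 1 were higher and 1, 4 and 2 lower, with list means of 8.49 to 8.90, 8.85 to 9.03 and 9.13 to 9.19. The 4 lower in lymphomas against wild-type cells were Cd3g, Rag1 (-1.92), Rag2 (-1.39) and Dntt (-0.94), with limma adjusted p = 0.00824, 0.0197 and 0.00214 for the last 3. Without wild-type replicate 3 the calls of Rag1, Rag2 and Cd3g were lost (adjusted p = 0.0520, 0.0872 and 0.0771). With KO and wild-type arrays paired by number, the calls in KO against wild-type DN3 cells became 5 higher for regulatory T cell markers, with Ctla4 added (0.87, adjusted p = 0.000613), 4 higher for gamma-delta and 2 higher for NK markers. They became 1 higher and 1 lower for stroma and 3 lower for DN3 markers, and did not change for B cell, myeloid and receptor-induced genes. The background of these paired counts is 9.23% of all genes tested. The part of any of these cell types or programmes in the levels of Ikzf1, Ikzf2 and Ikzf3 was not tested.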

How the data were processed

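RNA of 800 pg to 50 ng was amplified with a NuGEN Pico kit, per the labels' protocols. The authors deposited log2 signals per array row, and the submitters' processing notes name RMA and Partek. No version or setting is given in the sources used here, and base 2 is inferred from the range of values. RMA gives the arrays nearly 1 common distribution, so differences are relative to other genes, and folds of dim genes are understated.

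Of 35556 rows, 21789 had 1 gene symbol, and 21698 of these matched the RefSeq gene table of GRCm38.p6. The row with the highest mean stood for a gene, and genes with a mean under the 25th percentile (4.78) were left out. Each comparison was fitted on its 2 groups with limma 3.58.1 in R 4.3.3 (two-sided, Benjamini-Hochberg over 14953 genes, called under 0.05). In simulated data with 200 genes changed by 1, 82.5%, 93.5% and 90% were recovered in KO against wild-type DN3 cells, lymphomas against wild-type cells and lymphomas against KO DN3 cells. Replicates are labelled biological, and p-values cover the spread between these arrays alone.

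Members and the 12 gene lists were chosen with earlier results of these data known. Named list genes are up to 4 called per comparison with the lowest p, and other members of a list were named to describe it, after their values were seen. Deviations from group means were correlated between groups to see whether replicate numbers pair arrays. Same-numbered KO and wild-type DN3 arrays correlated at 0.51, 0.42 and 0.25, and differently numbered ones at -0.41 to 0.06. The labels do not say that numbers pair arrays, and both number 1 arrays lie in the smaller batch. The main fits leave arrays unpaired, and a fit paired by number is given beside them for KO against wild-type DN3 cells. Between lymphomas and DN3 cells, number 2 gave -0.22 against wild-type and -0.26 against KO arrays, so no paired counts are given there. The replicate block was still run there as 1 of the alternative fits. Lymphomas 4, 5 and 6 have no DN3 array of the same number, so they add nothing to the differences of that fit.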

Additional observations from a re-analysis of the deposited data

How the results depend on the processing

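Ikzf2 and Ikzf3 kept direction and call in every alternative that gave a test, which covered median-centred or repeatedly quantile-normalised arrays, no filter or a 50th percentile filter, averaged rows, 1 fit to all arrays, a trended robust variance, the replicate block, the array batch as a term, each batch alone and each array left out. Ikzf1 lost its call in lymphomas in the larger batch alone, at 0.57 against wild-type and 0.56 against KO DN3 cells. Its difference between KO and wild-type DN3 cells, not called, turned to 0.027 with repeated quantile normalisation and 0.0099 in the larger batch, and ran from -0.18 to 0.091 as single arrays were left out. Ikzf5 in that comparison was at 0.40 in the smaller batch, with 1 array a group and no test. With the replicate block Ikzf3 differed by 1.89 between KO and wild-type DN3 cells (adjusted p = 2.97e-06), and the block changed no call of a member.

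Counts of genes called moved more than members did. In place of 298 in KO against wild-type DN3 cells, the replicate block gave 1380, the batch term 754 and the larger batch 144. Leaving out single arrays gave 57 (without wild-type replicate 2) to 443. In place of 871 in lymphomas against wild-type cells, 549 and 240 were called in the larger and the smaller batch, and 560 to 872 with single arrays left out. In place of 990 in lymphomas against KO DN3 cells, the batch term gave 1702, the larger batch 325 and the smaller batch 262, and 431 to 1361 with single arrays left out. Batches alone and fits without an array hold fewer arrays, and the smaller batch holds 1 array of each DN3 group. The cause of the other moves was not tested. The number of arrays, 3 in each DN3 group, limits the precision, and dim rows such as that of Ikzf4 carry no detection call.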
